A study of Mus musculus with 4 samples.

Results

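The genes described here are 36 genes of the mitotic spindle and of cell division, out of 32285 genes in the deposited matrices. They were chosen by name, as a module of known function, and all 36 were found. The homeostasis matrix was given its genes by row order from the 5-FU feature list, so all values at homeostasis rest on that match. Log counts of the libraries correlated across genes at 0.926 with the rows as given and at most 0.395 with the rows shifted by 1 to 3, which is a description over genes and not a test. Chromosomes are parted by a spindle of microtubules on which kinesin motors (the Kif genes) and bundling factors work. Entry into mitosis is driven by cyclin B with Cdk1, the Aurora and Polo-like kinases shape the spindle, and the Bub kinases hold back the anaphase-promoting complex until each chromosome is attached at its kinetochore. Most of these genes are transcribed late in the cell cycle, so their RNA marks cells that are about to divide, and long-term hematopoietic stem cells (LT-HSCs), which are mostly quiescent, hold little of it.

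Single-cell RNA-Seq was performed on LSK cells of C57BL/6 mice, the bone marrow fraction sorted as negative for lineage markers and positive for Sca-1 and cKit, which holds stem cells and multipotent progenitors. Wild-type mice are named in the study's methods as Sin3B F/F, the floxed allele, with no Cre named, and knockout mice were Sin3B F/F; Vav1-iCre+, in which Cre acts throughout the blood lineage from fetal life on, so that the cells had developed without Sin3B long before harvest. One pair of libraries came from untreated mice (homeostasis), which were male, and the other from mice harvested 9 days after a dose of 5-fluorouracil (5-FU, 100 mg/kg), which is toxic to cycling cells. In each condition the cells of 2 mice per genotype were combined and stained with 1 hashtag antibody per genotype, so each library holds 1 pool of wild-type and 1 pool of knockout cells. There is no spread between mice and no replicate test, and intervals cover counting error only.

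At homeostasis 10184 wild-type and 4108 knockout cells were kept, and after 5-FU 4855 and 3307. The median depth was between 6606.5 and 10935 unique molecular identifiers (UMIs) per cell. The targeted gene, Sin3b, was measured in UMIs scaled to the same pool total (CPM), and it fell from 81.7 to 23.3 CPM in all kept cells at homeostasis (log2 ratio -1.81) and from 113 to 15.1 after 5-FU (log2 ratio -2.90). Of the cell barcodes, 76 occurred in both libraries. Condition and library coincide and the libraries were counted by different software versions, so levels were compared between genotypes within a library, and the effect of condition and that of library cannot be told apart. Barcodes with no tag assigned made up 26.3% and 25.8% of those called as cells, and they held Sin3b at 29.0 and 21.7 CPM, close to the level of cells with the knockout tag (23.1 and 14.7) and far under that of cells with the wild-type tag (80.3 and 113). The knockout cells analysed may thus be part of those present. With a mixture model of the tag ratio, which assigns more barcodes, 9028 knockout cells were kept at homeostasis and 5711 after 5-FU, and the members' summed log2 ratio in all kept cells was -0.44 and 0.16.

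The promoters of the members share 2 short motifs. Promoter sequences (250 bases before to 50 after the transcription start, RefSeq, GRCm38.p6) were held for 30 of the 36 members, and Ccna2, Pif1, Kif20a, Aurkb, Tpx2 and Foxm1 are named only. The cell cycle genes homology region (CHR, letters TTTGAA or TTTAAA, both strands) is known as the element through which the DREAM complex holds late cell cycle genes silent in resting cells and through which B-Myb (Mybl2) and Foxm1 later act, and CCAAT is the letter sequence bound by NF-Y. TTTGAA was found in 22 of the 30 members, or 75% of their 32 promoters, against 17.9% of all 32851 promoters in the table. TTTAAA, which reads the same on both strands, was in 28.1% of the member promoters against 13.2% of all, and CCAAT was in 78.1% against 37.4%. A CHR motif together with CCAAT was in 71.9% of the member promoters and 10.7% of all. The letters GGCGGGA, part of many E2F sites, were in 28.1% against 11.3%, and TATAAA was in 3.13% against 13.6%. Neighbouring matches may share a letter, and a match is a description of these letters, not a shown binding site. The 130 bases before the start are given for 9 members, to show the arrangement in genes of mitotic entry, the checkpoint, the spindle and chromosome structure, with the CHR and CCAAT letters, in either orientation, in capitals.
Cdc20 (chr4:118437344-118437473, minus strand): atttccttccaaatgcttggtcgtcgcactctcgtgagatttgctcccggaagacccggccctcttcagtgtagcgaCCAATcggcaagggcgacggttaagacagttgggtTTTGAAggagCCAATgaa
Cdk1 (chr10:69352913-69353042, minus strand): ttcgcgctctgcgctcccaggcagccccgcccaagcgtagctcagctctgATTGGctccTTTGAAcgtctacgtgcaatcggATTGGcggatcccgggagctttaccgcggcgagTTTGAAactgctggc
Ube2c (chr2:164769799-164769928, plus strand): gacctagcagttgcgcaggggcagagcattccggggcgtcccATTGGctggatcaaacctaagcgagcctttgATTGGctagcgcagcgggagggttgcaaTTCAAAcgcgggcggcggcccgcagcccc
Kif11 (chr19:37376252-37376381, plus strand): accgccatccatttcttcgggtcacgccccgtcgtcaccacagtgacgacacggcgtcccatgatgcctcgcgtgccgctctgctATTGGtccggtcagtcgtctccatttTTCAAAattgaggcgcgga
Top2a (chr11:99024190-99024319, minus strand): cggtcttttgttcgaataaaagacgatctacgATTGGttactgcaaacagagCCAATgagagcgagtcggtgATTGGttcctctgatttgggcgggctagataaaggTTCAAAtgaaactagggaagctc
Mki67 (chr7:135716380-135716509, minus strand): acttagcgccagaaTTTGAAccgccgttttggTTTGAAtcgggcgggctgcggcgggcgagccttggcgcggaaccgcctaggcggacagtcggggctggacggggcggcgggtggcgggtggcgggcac
Ccnb1 (chr13:100786487-100786616, minus strand): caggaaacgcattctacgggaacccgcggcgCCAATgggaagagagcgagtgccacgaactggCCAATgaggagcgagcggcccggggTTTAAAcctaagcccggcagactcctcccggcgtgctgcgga
Bub1 (chr2:127831860-127831989, minus strand): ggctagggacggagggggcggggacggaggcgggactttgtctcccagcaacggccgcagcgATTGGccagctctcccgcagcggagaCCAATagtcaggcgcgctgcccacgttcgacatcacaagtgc
Mybl2 (chr2:163054505-163054634, plus strand): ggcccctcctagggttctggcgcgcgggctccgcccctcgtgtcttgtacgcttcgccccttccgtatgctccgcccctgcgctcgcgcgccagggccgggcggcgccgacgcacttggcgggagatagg
In Cdc20, Ube2c, Kif11, Top2a and Ccnb1 1 CHR motif lay in these 130 bases with 1 to 3 CCAAT boxes, and Cdk1 held 2 of each. Mki67 held 2 CHR motifs, with no CCAAT in the bases shown. Bub1 held 2 CCAAT boxes and no CHR motif. Mybl2, the gene for B-Myb, held neither CHR nor CCAAT letters in its whole promoter, nor did Knstrn and Nusap1, but Mybl2 held GGCGGGA.

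Most of the members' RNA lay in dividing cells. A cell was called dividing when it held 10 or more UMIs of 50 other mitosis genes, none of them a member, after each cell had been thinned to 4000 UMIs. At homeostasis 1356 of 9700 wild-type cells (14.0%, exact binomial 95% interval 13.3 to 14.7) were dividing and held the members at 6537 CPM, against 455 in the other 8344. For the median member the percent of UMIs that lay in dividing cells was 80.7 (wild type) and 83.1 (knockout) at homeostasis, and 79.9 and 84.1 after 5-FU. The range was wide. Hmmr, a spindle-binding protein, had 89.2% of its UMIs in dividing wild-type cells at homeostasis and 92.7% after 5-FU, and Ube2c, the ubiquitin-conjugating enzyme of the anaphase-promoting complex, 88.6% and 93.6%. At the other end stood Mybl2, with 43.3% in wild-type cells against 45.9% in knockout cells at homeostasis, while after 5-FU the shares were 46.7% and 61.2%. Kif23, a motor of the midzone spindle and cytokinesis, had 61.1% and 46.8% at homeostasis and 51.8% and 55.4% after 5-FU. Kif20b had 68.3% and 63.8%, then 57.4% and 64.4%, and Ect2, which activates RhoA at the cleavage furrow, 71.0% and 65.8%, then 62.3% and 70.3%. Mybl2, Kif23 and Kif20b were thus the members with most RNA outside dividing cells in wild-type cells of both libraries.

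**Figure D1:**
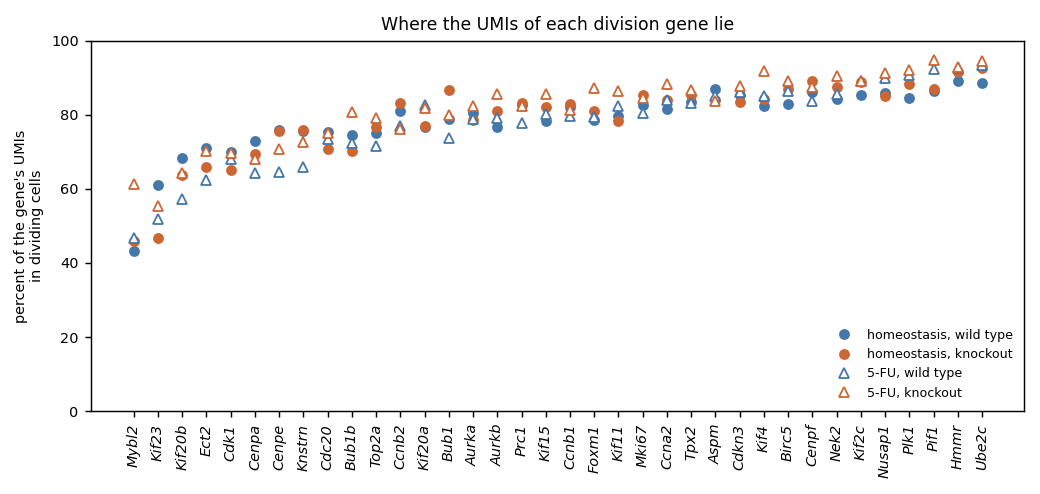
Percent of each member's UMIs (y axis) that lay in dividing cells, for each of the 36 genes (x axis, ordered by the mean of the 4 values). Circles are homeostasis and open triangles 5-FU, with wild-type pools in blue and knockout pools in orange; Mybl2 and Kif23 lie lowest, and Ube2c and Hmmr highest.

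Member RNA sat in few cells. Among kept cells of 4000 or more UMIs, thinned to that depth, the median cell held 1 member UMI in each genotype and library. The tenth of these cells with most held between 66.4% and 71.6% of their member UMIs. Between 29.2% and 32.6% of cells held none.

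LT-HSC-like cells held least member RNA of the named classes in both libraries, and megakaryocyte/erythroid-primed-like cells most. Cells were clustered without the members, other cell cycle genes and the genes that correlated with the members at 0.15 or more, and a cluster was named from markers of its class. Some signal of the cycle, members included, stayed in several clusters. One unnamed cluster at homeostasis was led by genes such as Pclaf, Uhrf1, Rrm2 and the member Mybl2, and 33.8% of its wild-type cells were dividing. Another was led in part by the members Ube2c, Cenpf and Aspm and held 14.4% of wild-type against 0.389% of knockout cells, and Ccnb2 was among the lead genes of one more. After 5-FU Pclaf and Rrm2 were among the lead genes of 1 cluster. LT-HSC-like clusters held the members at 555 CPM (wild type) and 472 CPM (knockout) at homeostasis, and at 666 and 441 CPM after 5-FU. Megakaryocyte/erythroid-primed-like clusters held 2671 and 3055, then 3123 and 3343, the highest of the named classes. Lymphoid-primed-like cells, named at homeostasis only, held 1481 in wild-type (1532 cells) and 2341 in knockout cells (135 cells). After 5-FU an unnamed cluster had 8 of 9 lymphoid-primed and 6 of 6 B cell markers raised. It held the members at 1591 (wild type, 331 cells) and 1668 CPM (knockout, 156 cells). Clusters without a name held 1797 and 1580 at homeostasis and 1373 and 1699.5 after 5-FU. Taken singly, they did not all lie above the LT-HSC-like class. After 5-FU an unnamed cluster led by H2-Eb1 and Ccl3 held 387 (wild type, 669 cells) and 307 CPM (knockout, 412 cells). All 36 members were lower in LT-HSC-like than in other cells, in both genotypes and both libraries, which is an order over classes and not a test. The log2 difference ran in wild-type cells from -2.46 (Pif1) to -0.71 (Kif23) at homeostasis and from -3.16 (Pif1) to -0.28 (Kif23) after 5-FU. In knockout cells it ran from -2.70 (Kif15) to -0.41 (Kif23), and from -3.69 (Aurkb) to -0.21 (Kif23). Kif23 was the member closest to equal between stem and other cells in each of the 4 pools.

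**Figure D2:**
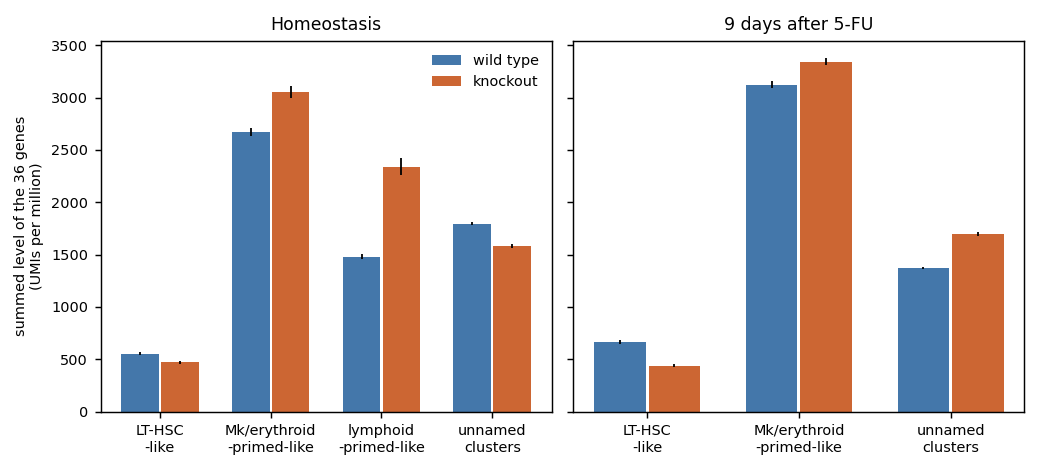
Summed level of the 36 genes in CPM (y axis) by cell class (x axis), with wild-type pools in blue and knockout pools in orange and exact Poisson 95% intervals that cover counting error only. Of the classes shown, LT-HSC-like cells lie lowest in both libraries, at 441 to 666, and megakaryocyte/erythroid-primed-like cells highest, at 2671 to 3343.

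In all kept cells the members went in opposite directions in the 2 libraries. At homeostasis their summed level was 1689.6 CPM in the wild-type and 1348 in the knockout pool, a log2 ratio of -0.33 (95% counting interval -0.34 to -0.31). After 5-FU it was 1588 and 1892, a log2 ratio of 0.25 (0.24 to 0.27). Neither direction depended on how cells were clustered or named, because all kept cells enter. Over the alternative hashtag rules and cell filters the ratio stayed between -0.58 and -0.31 at homeostasis and between 0.16 and 0.42 after 5-FU. At homeostasis 35 of 36 members had a ratio below 0, and in 33 the counting interval lay below 0, against 23.3% of all genes tested. After 5-FU 32 members had a ratio above 0, and in 30 the interval lay above 0, against 23.5% of all genes. Such an interval narrows with a gene's UMIs, and these shares are over all genes tested, not over genes of the members' depth. The changes of single members were small: 1 of 36 passed 1.5-fold at homeostasis (9.27% of all genes did, in either direction) and 0 of 36 after 5-FU (7.75% of all genes). The median log2 ratio of the members was -0.36 at homeostasis and 0.27 after 5-FU, and that of all genes tested 0.01 and -0.02.

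**Figure D3:**
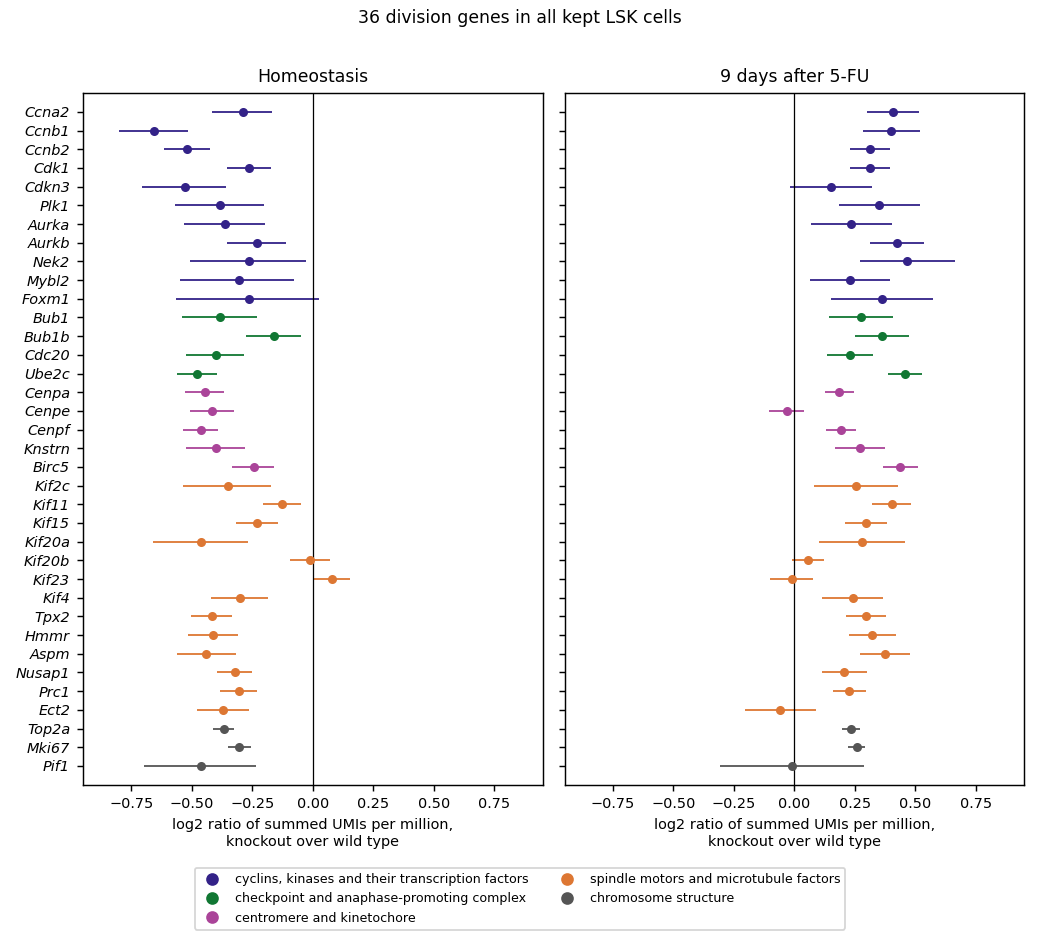
log2 ratio of summed CPM, knockout over wild type (x axis), for the 36 genes (y axis, grouped and coloured by role) in all kept cells, with 95% counting intervals as bars. At homeostasis 35 of 36 points lie below 0, and after 5-FU 32 of 36 lie above it.

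The cyclins and kinases of mitotic entry had a lower summed level in all kept knockout cells at homeostasis and a higher one after 5-FU. Ccnb1, cyclin B1, had 24.6 CPM in wild-type cells against 15.6 in knockout cells at homeostasis, and it was the 1 member past 1.5-fold there (log2 ratio -0.66, -0.80 to -0.51). After 5-FU it had 21.8 and 28.8 (0.40, 0.28 to 0.52). Cdk1, its kinase partner, had 49.5 and 41.2 at homeostasis (-0.26, -0.35 to -0.17) and 44.1 and 54.8 after 5-FU (0.31, 0.23 to 0.39). Aurkb, the kinase of the chromosomal passenger complex, had 27.5 and 23.4 (-0.23, -0.35 to -0.11), then 24.0 and 32.1 (0.42, 0.31 to 0.53). The transcription factors of this group rested on few UMIs, and their intervals were wide. Foxm1 had 4.83 and 4.01 at homeostasis (-0.26, -0.57 to 0.02) and 6.88 and 8.85 after 5-FU (0.36, 0.15 to 0.57). Mybl2 had 7.65 and 6.18 (-0.31, -0.55 to -0.08), then 11.8 and 13.8 (0.23, 0.06 to 0.39). Summed over the 11 genes of the group, the log2 ratio was -0.38 (-0.42 to -0.34) at homeostasis and 0.34 (0.30 to 0.37) after 5-FU. Split by class, as set out further on, it was -0.00 (-0.05 to 0.04) and 0.45 (0.41 to 0.49) in cells that were not LT-HSC-like, and -0.37 (-0.52 to -0.22) and -0.68 (-0.84 to -0.52) in LT-HSC-like cells. The values in LT-HSC-like cells after 5-FU, for this and the other role groups, belong to 1 way of naming the cells, and the summed ratio of all members in that class was above 0 under 5 of 12 alternatives, up to 0.59.

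The checkpoint and anaphase-promoting complex genes had the same pair of directions in all kept cells. Cdc20, which activates the complex, had 30.8 CPM in wild-type cells against 23.3 in knockout cells at homeostasis (-0.40, -0.52 to -0.28), while after 5-FU it was 35.5 and 41.6 (0.23, 0.14 to 0.32). Ube2c had 66.3 and 47.6 (-0.48, -0.56 to -0.40), then 58.9 and 80.7 (0.46, 0.39 to 0.53). For the 4 genes together the log2 ratio was -0.38 at homeostasis and 0.36 after 5-FU. It was -0.01 (-0.07 to 0.05) and 0.49 (0.45 to 0.54) outside LT-HSC-like cells, and -0.41 (-0.60 to -0.22) and -0.95 (-1.15 to -0.75) within them. In the centromere and kinetochore group (5 genes, -0.40 and 0.20) Birc5, survivin, had 53.2 and 44.9, then 54.8 and 74.2 (0.44, 0.36 to 0.51). Cenpe, the kinetochore kinesin, had 54.6 and 40.9 at homeostasis (-0.42, -0.51 to -0.33), and its 66.1 and 64.7 after 5-FU could not be told apart (-0.03, -0.10 to 0.04). The other 4 genes of this group had intervals above 0 after 5-FU. By class the group's ratio was -0.03 (-0.08 to 0.01) and 0.33 (0.29 to 0.36) outside LT-HSC-like cells, and -0.36 and -0.80 within them.

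Spindle motors and microtubule factors, 13 genes, had a summed log2 ratio of -0.25 at homeostasis, the nearest to 0 of the 5 role groups there, and of 0.22 after 5-FU, and some of them stayed near 0 in either library. Kif23 had 56.8 CPM in wild-type cells against 59.9 in knockout cells at homeostasis (0.08, 0.00 to 0.15), while after 5-FU it was 42.4 and 42.1 (-0.01, -0.10 to 0.08). Kif20b, a late cytokinesis motor, had 51.4 and 51.0 (-0.01, -0.09 to 0.07), then 72.4 and 75.2 (0.06, -0.01 to 0.12). These are also motors with much of their RNA outside dividing cells, as given above. Kif11, the motor that pushes spindle poles apart, moved little at homeostasis (60.3 and 55.1, -0.13, -0.21 to -0.05) and had 46.4 and 61.2 after 5-FU (0.40, 0.32 to 0.48). Ect2 had 36.8 and 28.5 at homeostasis (-0.37, -0.48 to -0.26) and had 16.2 and 15.5 after 5-FU (-0.06, -0.21 to 0.09). The group's ratio was 0.09 (0.06 to 0.12) and 0.31 (0.29 to 0.34) outside LT-HSC-like cells, and -0.10 (-0.19 to -0.02) and -0.32 (-0.41 to -0.23) within them.

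Of the genes of chromosome structure, Top2a and Mki67 carried most UMIs of all members, so their ratios had the narrowest intervals. Top2a, the topoisomerase that unlinks sister chromatids, had 231 CPM in wild-type cells against 179 in knockout cells at homeostasis (-0.37, -0.41 to -0.33), while after 5-FU it was 209 and 245 (0.23, 0.20 to 0.27). Mki67, which coats mitotic chromosomes and is the usual marker of proliferation, had 176 and 142 (-0.30, -0.35 to -0.26), then 229 and 274 (0.26, 0.22 to 0.29). Pif1, a helicase, had 8.60 and 6.24, then 4.04 and 4.01, with an interval of -0.31 to 0.29 after 5-FU. The ratio of the 3 genes of the group was 0.04 (0.01 to 0.08) and 0.35 (0.32 to 0.37) outside LT-HSC-like cells, and -0.22 and -0.67 within them.

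The share of dividing cells moved in the same way as the members' level. At homeostasis 14.0% of wild-type and 9.97% of knockout cells were dividing (387 of 3880 knockout cells), a difference of -4.01 percentage points (Newcombe 95% interval -5.15 to -2.81). After 5-FU it was 11.9% (516 of 4343 cells) and 14.0% (439 of 3137), a difference of 2.11 points (0.58 to 3.68). Within dividing cells the members' level hardly differed between genotypes. It was 6537 CPM in wild-type cells against 6708 in knockout cells at homeostasis (log2 ratio 0.04, 0.02 to 0.06), while after 5-FU it was 6709 and 6482 (-0.05, -0.07 to -0.03). In cells not dividing it was 455 and 349 at homeostasis (-0.38, -0.42 to -0.35), and 468 and 474 after 5-FU (0.02, -0.01 to 0.05). The members had not been used to call dividing cells, but the 50 genes that had are of the same process.

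Other gene lists of the cell cycle had the members' directions in all kept cells. Of the 50 other mitosis genes 44 had a ratio below 0 at homeostasis and 48 above 0 after 5-FU, with summed log2 ratios of -0.14 and 0.24. Of 31 DNA replication genes 24 were below 0 at homeostasis and 30 above 0 after 5-FU, with -0.18 and 0.22. At homeostasis the members' summed ratio of -0.33 was thus further from 0 than that of either list. In LT-HSC-like cells the 50 other mitosis genes had a summed log2 ratio of 0.03 (-0.01 to 0.08) at homeostasis against -0.23 for the members, and of -0.20 after 5-FU against -0.60. The replication genes had -0.10 and -0.37 there. No difference between the lists was tested, and the members' own ratio in these cells ran from -0.83 to 0.09 at homeostasis and up to 0.59 after 5-FU over the alternatives given further on.

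The makeup of the 2 pools differed. LT-HSC-like cells, low in the members, made up 12.7% of wild-type cells against 42.2% of knockout cells at homeostasis, and 22.5% against 32.2% after treatment. So the comparison was repeated within LT-HSC-like cells and within the other kept cells. The split did not make the makeup equal. Among the other cells at homeostasis, an unnamed cluster led by Zfp981 and Gm42031 held 1.35% of all wild-type against 34.6% of all knockout cells. The members were at 1953 CPM (wild type, 137 cells) and 1677 CPM (knockout, 1421 cells) in it. In other cells at homeostasis the summed level was 1828 CPM in wild-type and 1874 in knockout cells, a log2 ratio of 0.04 (0.02 to 0.05), 0 of 36 members passed 1.5-fold in either direction (7.82% of all genes did), and the dividing share was 15.6% and 15.8% (difference 0.25 points, -1.39 to 1.98). Under most alternatives, weighting to the same cluster makeup among them, the ratio in these cells turned to below 0 (-0.33 to 0.48 over all of them), so no direction is read from it. Top2a was at 253 in both pools of these cells (0.00, -0.04 to 0.05), Cdk1 at 53.4 and 55.4 and Cdc20 at 33.1 and 30.3. In the same cells the 6 mature neutrophil markers, none at 0 in either pool, were at 11.04 CPM (wild type) and 78.5 CPM (knockout), the 9 megakaryocyte/erythroid-primed markers at 161 and 361, and the 9 lymphoid-primed markers at 1112 and 905, and their part was not tested. Members whose intervals left out 0 lay on both sides of it. Ccnb1 had 26.5 and 21.3 (-0.32, -0.47 to -0.17), and Kif20b had 54.7 and 67.4 (0.30, 0.21 to 0.39).

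After 5-FU the other cells held more member RNA in the knockout. Most of them lay in clusters without a name, 3033 wild-type and 1565 knockout cells, against 731 and 677 in megakaryocyte/erythroid-primed-like clusters. The summed level was 1806 CPM in wild-type and 2321 in knockout cells, a log2 ratio of 0.36 (0.35 to 0.38). Of the members 35 of 36 had a ratio above 0, against 5706 of all 13011 genes tested. Past 1.5-fold were 2 members, against 2.80% of all genes in that direction, and between 0 and 15 members passed it in either direction over the alternatives. For counts under the alternatives, here and below, no share of all genes was set beside them. Nek2, a centrosome kinase, had 8.72 and 13.2 (0.60, 0.40 to 0.81), and Ube2c had 67.1 and 101 (0.60, 0.52 to 0.67). Below the fold, Aurkb had 28.4 and 40.7 (0.52), Ccnb1 24.3 and 34.3 (0.50), Foxm1 7.66 and 10.8 (0.49), Cdk1 50.3 and 66.8 (0.41), Mki67 265 and 342 (0.37), Cdc20 39.9 and 50.6 (0.34), Top2a 242 and 304 (0.33) and Mybl2 14.0 and 17.3 (0.31). Every one of these intervals lay above 0. Kif23 alone had a ratio below 0, with 43.9 and 43.4 (-0.02, -0.12 to 0.08). The dividing share was 14.7% in wild-type cells (490 of 3344) and 20.4% in knockout cells (427 of 2093), which differ by 5.75 points (3.67 to 7.87).

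The direction in other cells after 5-FU held under 11 of 12 alternatives (0.27 to 0.51). The exception was a gate of 3 UMIs over the 9 LT-HSC markers, which takes nearly all cells as stem and leaves few others (-0.06). Megakaryocyte/erythroid-primed-like cells, highest in the members, made up 15.1% of wild-type cells against 20.5% of knockout cells after 5-FU, and the summed level of the 9 markers of that class in other cells was 579 and 998 CPM. The 6 erythroblast markers were at 60.3 and 97.1 CPM there, with none at 0, and the 8 neutrophil-primed markers at 846 and 611, and their part in the members' ratio was not tested. With both genotypes weighted to the same cluster makeup the log2 ratio was 0.29. By cluster the ratio was uneven. Of 10 clusters with at least 20 cells of each genotype after 5-FU, the interval lay above 0 in 6 and below it in 3, and the ratios ran from -0.33 to 1.22. The highest were 2 unnamed clusters, in 1 of which the members had 442 and 1033 CPM (1.22) and in the other 1389 and 3096 (1.16). At homeostasis, of 11 such clusters, 4 lay above and 6 below 0, from -1.11 to 0.66.

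In LT-HSC-like cells the summed level of the members was lower in the knockout pools of both libraries, but the direction did not hold under every alternative or within every cluster. Genotypes sat in different clusters of this class, and these clusters differed in member level too. At homeostasis the summed log2 ratio was -0.23 (-0.29 to -0.18), and 4 of the 32 members with at least 50 UMIs over both pools passed 1.5-fold downwards, against 3.96% of all genes in that direction. That count was unstable: over the alternatives between 1 and 31 members passed the fold in either direction. Aurka, the centrosomal Aurora kinase, had 6.76 and 3.34 CPM (-1.01, -1.63 to -0.42). Cdkn3, a phosphatase of Cdk1 and Cdk2, had 5.76 and 3.01 (-0.93, -1.59 to -0.30). Plk1, the Polo-like kinase, had 4.87 and 2.76 (-0.82, -1.52 to -0.14), and Ube2c 20.7 and 12.1 (-0.77, -1.10 to -0.45). They rest on 33 to 187 UMIs per pool. Each of the 4 was below 0 in all 12 alternatives, and the summed ratio was below 0 in 11 of 12 (-0.83 to 0.09). Mki67 had 54.7 and 38.8 (-0.50, -0.68 to -0.31), while Top2a, at 56.3 and 56.1, and Cdk1, at 17.1 and 17.6, did not differ detectably. Kif23 had 36.1 and 49.7 (0.46, 0.26 to 0.66), the one measured member whose interval lay above 0. Most wild-type LT-HSC-like cells lay in a cluster led by Runx1t1 and Meg3 and most knockout cells in one led by Pdgfc and Dnm3. Within the first the ratio was -1.11 (-1.41 to -0.83), with 60 knockout cells, and within the second 0.64 (0.50 to 0.80), with 149 wild-type cells, so the 2 clusters gave opposite directions. With equal cluster makeup the ratio was -0.08. In the LT-HSC-like pools at homeostasis the 6 erythroblast markers were at 91.1 CPM (wild type) and 41.4 CPM (knockout), with 1 at 0 in each pool, and the 9 megakaryocyte/erythroid-primed markers at 164 and 206, and their part was not tested.

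After 5-FU the summed log2 ratio in LT-HSC-like cells was -0.60 (-0.65 to -0.54), and 16 of 33 measured members passed 1.5-fold downwards, against 3.86% of all genes. Over the alternatives between 0 and 21 members passed it in either direction, and single members changed sign: Mki67 was above 0 in 8 of 12 alternatives, Ube2c in 6, Ccnb2, Cdkn3, Kif4 and Knstrn in 5 each, and Bub1 in 1. So the values that follow describe these pools under 1 way of naming the cells. The largest were Bub1, a kinase of the spindle checkpoint, with 9.66 and 2.91 CPM (-1.71, -2.38 to -1.12), Cdkn3 with 6.08 and 2.01 (-1.57, -2.40 to -0.85) and Ccnb2, cyclin B2, with 20.2 and 7.54 (-1.42, -1.83 to -1.03). Next came genes of the kinetochore, Cenpf with 30.3 and 12.8 (-1.24) and Cenpe with 36.5 and 17.3 (-1.07), and Ube2c with 24.0 and 10.9 (-1.14). Ect2 had 10.3 and 5.23 (-0.97), Kif4 5.98 and 3.32 (-0.84), Birc5 14.1 and 8.04 (-0.81), Mki67 78.5 and 44.8 (-0.81), Knstrn 12.3 and 7.03 (-0.80) and Aurka 4.98 and 3.01 (-0.71). The other 4 past the fold, Bub1b, Hmmr, Aurkb and Prc1, lay between -0.70 and -0.59. Among the rest, Top2a had 69.5 and 48.2 (-0.53), Cdc20 16.7 and 11.4 (-0.56), Cdk1 17.9 and 14.0 (-0.36), and Ccnb1 11.3 and 10.0 (-0.16, -0.57 to 0.24).

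This lower level after 5-FU was nearly gone when the makeup of the class was held equal. The pools lay differently over its 2 clusters: the cluster led by Cyp26b1 and Dnm3, with 227 and 256 CPM of the members, took 4.74% of wild-type cells against 21.6% of knockout cells, and the cluster led by Neo1 and Plcl1, with 746 and 684, took 17.7% and 10.6%. Within the first the log2 ratio was 0.17 (0.01 to 0.35) and within the second -0.13 (-0.19 to -0.06), and with equal makeup it was -0.06. Under 5 of 12 alternatives the summed ratio was above 0, up to 0.59 without lineage removal. Among these 5 was the gate of 3 UMIs, which took nearly all cells as LT-HSC-like. Dividing cells of the class were few in both libraries: 30 of 1181 wild-type cells (2.54%, exact interval 1.72 to 3.61) and 26 of 1598 knockout cells (1.63%, 1.07 to 2.37) at homeostasis, and 26 of 999 (2.60%, 1.71 to 3.79) and 12 of 1044 (1.15%, 0.60 to 2.00) after 5-FU. The difference was -0.91 points (-2.09 to 0.15) and -1.45 points (-2.73 to -0.27). Over the alternatives it ran from -4.61 to 3.97 points at homeostasis and from -2.12 to 2.46 after 5-FU, above 0 in 1 and in 6 of 13, so no direction is read from it. In LT-HSC-like cells that were not dividing, the members' level at homeostasis was 229 CPM in the wild-type and 257 in the knockout pool (0.16, 0.08 to 0.25), the opposite direction to the class as a whole, and with cutoffs of 5 and 20 UMIs the ratio was also above 0 (0.193 and 0.245). After 5-FU it was 332 and 265 (-0.32, -0.40 to -0.25). In the few dividing cells of the class the level was 8530 and 7551 at homeostasis (-0.18, -0.25 to -0.10), and 9975 and 8361 after 5-FU (-0.25, -0.34 to -0.17). These ratios moved with the cutoff, to -0.858 (5 UMIs) and -0.00114 (20 UMIs) at homeostasis and to -0.812 (5 UMIs) and -0.192 (20 UMIs) after 5-FU. Markers of other classes also differed between the LT-HSC-like pools after 5-FU: the 9 lymphoid-primed markers were at 153 (wild type) and 75.97 CPM (knockout), the 8 neutrophil-primed markers at 892 and 651, the 6 T/NK markers at 76.5 and 27.9, with 3 and 4 of them at 0, and the 9 megakaryocyte/erythroid-primed markers at 261 and 341. Their part in the members' ratio was not tested.

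**Figure D4:**
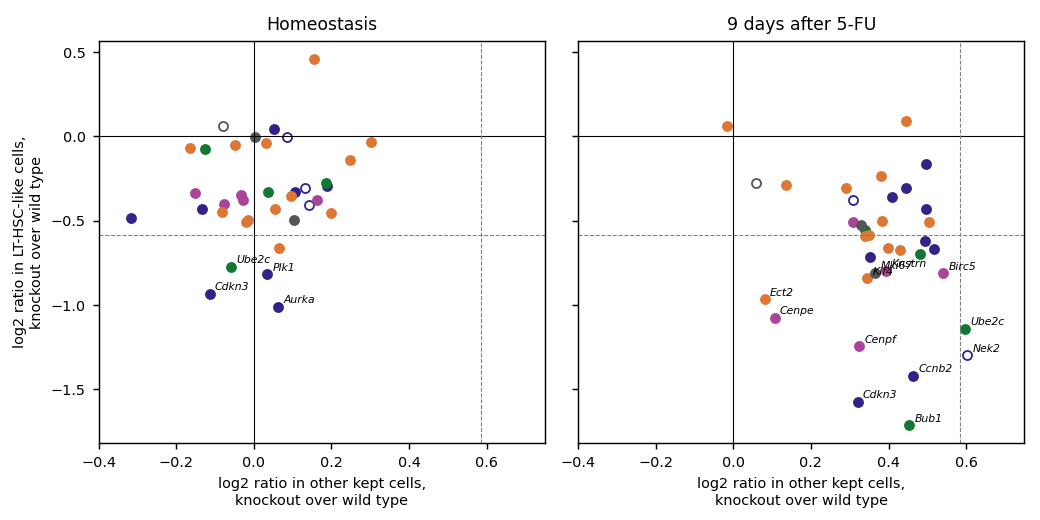
log2 ratio of each member, knockout over wild type, in LT-HSC-like cells (y axis) against that in other kept cells (x axis), coloured by role as in the plot of all kept cells, with open points for genes under 50 UMIs in LT-HSC-like cells. Dashed lines mark 1.5-fold lower (y) and higher (x), and names are given to genes past them, in LT-HSC-like cells only those under -0.75; after 5-FU most points lie to the right of 0 and below it.

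In dividing other cells the members' level was close to equal between genotypes, at homeostasis as in all other cells. The members had 6494 CPM in wild-type cells against 6643 in knockout cells at homeostasis (log2 ratio 0.03, 0.01 to 0.05), while after 5-FU the level was 6582 and 6442 (-0.03, -0.05 to -0.01), and 0 of 36 members passed 1.5-fold in either library (7.06% and 4.70% of all genes did). With cutoffs of 5 and 20 UMIs for a dividing cell the ratio was -0.0523 and -0.0187 at homeostasis and 0.0934 and -0.127 after 5-FU, so no direction is read from it. At homeostasis the single members ran from Ccnb1, with 97.6 and 78.7 (-0.31, -0.48 to -0.15), to Kif20b, with 170 and 203 (0.26, 0.15 to 0.36). After 5-FU they ran from Pif1 (-0.38, -0.69 to -0.07) to Mybl2 (0.20, -0.03 to 0.43). In other cells that were not dividing, the summed level was 488 and 418 at homeostasis (-0.22, -0.26 to -0.18) and 508 and 561 after 5-FU (0.14, 0.11 to 0.18). These ratios moved with the cutoff for a dividing cell: with 5 and 20 UMIs in place of 10 the homeostasis ratio was -0.01 and -0.09, and the 5-FU ratio 0.04 and 0.39. At the cutoff of 10 UMIs 7 members passed the fold downwards at homeostasis (7.61% of all genes passed it in either direction), among them Ube2c with 10.5 and 4.69 (-1.15) and Bub1 with 5.52 and 3.15 (-0.80), and 2 passed it upwards after 5-FU (7.04% of all genes), Ccnb2 with 14.7 and 23.6 (0.69) and Kif20a with 2.26 and 3.39 (0.59). Barcodes under 100 UMIs at homeostasis, which hold no cell for the most part, carried the members at 1263 CPM, above the level in cells not dividing, and the part of free RNA in the latter was not tested. No such value was computed after 5-FU.

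**Figure D5:**
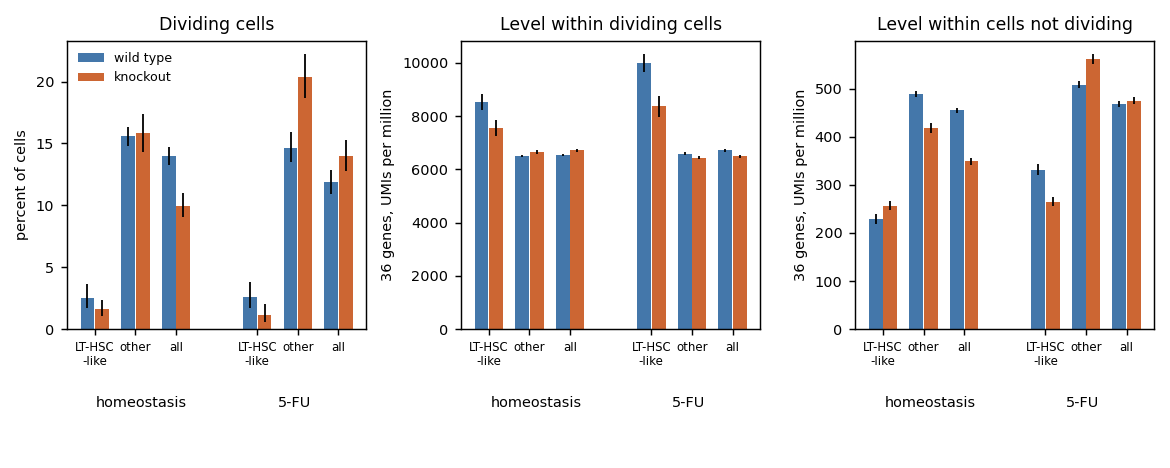
Percent of cells that were dividing (left, exact binomial 95% intervals) and summed level of the 36 genes in CPM within dividing cells (middle) and cells not dividing (right, exact Poisson 95% intervals), for LT-HSC-like, other and all kept cells of each library. In other cells after 5-FU 14.7% of the wild-type (blue) and 20.4% of the knockout (orange) pool were dividing, at member levels of 6582 and 6442 within dividing cells, and in other cells at homeostasis 15.6% and 15.8% were dividing.

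Among the other mitosis genes and replication genes of the single classes, the extremes named the following. In LT-HSC-like cells at homeostasis Kif14 (-1.02) and Pimreg (-0.77) were lowest and Ncaph (0.69) and Bora (0.47) highest of the mitosis genes, and Ccne2 (-0.82) and Chaf1b (-0.77) were lowest and Rrm2 (0.82) and Cdc6 (0.64) highest of the replication genes. After 5-FU, Psrc1 (-1.06) and Dlgap5 (-0.96) were lowest and Racgap1 (0.29) and Cdc25b (0.25) highest, and Uhrf1 (-1.21) and E2f1 (-1.16) were lowest and Rfc5 (0.22) and Rfc4 (-0.08) highest. In other cells at homeostasis the ends were Cep55 (-0.48), Psrc1 (-0.27), Bora (0.40) and Cdca8 (0.36), and Chaf1b (-0.42), Ccne2 (-0.08), Ccne1 (0.61) and Rrm2 (0.45). After 5-FU they were G2e3 (-0.12), Pttg1 (-0.10), Nuf2 (0.79) and Cdca8 (0.75), and Chaf1b (0.04), Pole (0.11), Fen1 (0.70) and Rrm2 (0.66). In other cells after 5-FU 31 of 31 replication genes had a ratio above 0 and 3 of them passed 1.5-fold, where 35 of 36 members were above 0 and 2 passed it.

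Over both libraries together 0 members were called in the fit as set out, and some under its alternatives. A quasi-likelihood fit in edgeR on the 4 pools of a class, with condition as a term, has 1 residual degree of freedom. It is made of the change in the genotype difference between the libraries, so the fit is a check across libraries and not a test within one. In LT-HSC-like cells it called 17 of 14237 genes at an adjusted p under 0.05 (0.119%) and 0 of 36 members, of which 14 had an unadjusted p under 0.05 (9.41% of all genes tested did). Mki67 had the smallest adjusted p of the members, 0.118, at a log2 fold change of -0.65. In other cells it called 150 of 16468 genes (0.911%) and 0 members, with 9 at an unadjusted p under 0.05 (15.2% of all genes), and Kif11 had the smallest adjusted p, 0.126, at 0.39. DESeq2 also called 0 members in either class, with 2 and 7 at an unadjusted p under 0.05 (1.9% and 7.19% of all genes). Without the filter on low counts edgeR called 7 members in LT-HSC-like cells, all lower (1.65% of all 22666 genes were called in either direction), and 3 in other cells, all higher (4.17% of 25031). With the mixture model of the tag ratio it called 9 in LT-HSC-like cells, all lower (2.61% of 14317), and 0 in other cells (0.607% of 17122). With the 80% tag rule it called 0 members in either class (175 of 13679 and 100 of 16178 genes). In LT-HSC-like cells 14 of 35 members had a fold change above 0 under that rule, against 2 of 36 in the fit as set out. In other cells 12 of 36 were above 0 with the mixture model and 32 with the 80% rule, against 36.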

How the data were processed

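The deposited matrices hold UMI counts per gene and barcode, which the authors made with Cell Ranger from 10x Genomics 3' libraries with hashtag antibodies, and no normalised value was used. The genotype of each hashtag came from the study's methods. At homeostasis, where all barcodes are listed, a cell needed 10% of the 99th percentile of UMIs of the 10000 largest barcodes (2921 UMIs). Tags were assigned with HTODemux (Seurat 5.3.0, quantile 0.99), barcodes with both tags were dropped, and no other doublet caller was used, so doublets within a genotype remain. The 2% of cells at each end of depth, of the number of genes detected and of the mitochondrial share of UMIs were removed. Cells in which 9 lineage genes summed to at least 2 UMIs were removed too. Cells were clustered per library (scanpy 1.11.5, 2000 variable genes, 30 components, 20 neighbours, Leiden resolution 1). Left out of clustering were the members, the other mitosis genes, the replication genes, further cell cycle genes, histone, mitochondrial and sex genes and Sin3b. Genes correlated with the members at 0.15 or more in absolute value were left out too. Clusters were named LT-HSC-like, lymphoid-primed-like or megakaryocyte/erythroid-primed-like from 3 or more raised markers that made up most of the class's list. The class with the highest share gave the name. No name was given where the lead genes held more markers of another class or the cluster had under 50 cells.

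UMIs were summed per pool, and log2 ratios (0.5 added to each sum) carry exact conditional binomial 95% intervals for counting error. A member passed the fold at 1.5-fold with an interval leaving out 0, over genes with 50 or more UMIs in both pools together. The fold rule and the fit were tested on simulated data. edgeR 4.0.16 (quasi-likelihood, TMM, Benjamini-Hochberg adjustment) was fitted over the 4 pools, and DESeq2 1.42.0 was the alternative. The named genes were the members past the fold, the ends of each list and Ccnb1, Cdk1, Cdc20, Aurkb, Top2a, Mki67, Mybl2 and Foxm1. Other members, Kif11 among them, were named after their values were seen. The members, lists and rules were chosen with earlier results of these data known.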

Additional observations from a re-analysis of the deposited data

Results flagged for a closer look

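The log2 ratio of the summed members over all kept cells had opposite signs in the 2 libraries, -0.326 (homeostasis) and 0.252 (5-FU). After 5-FU it was -0.596 in LT-HSC-like and 0.361 in other cells. Neither difference was tested, since each pool is 1 sample. Barcodes with no tag assigned, which enter no comparison, held 9.30% dividing cells at homeostasis and 17.0% after 5-FU, against 11.1% and 17.1% with the knockout tag and 15.1% and 12.8% with the wild-type tag. These shares are of barcodes with 4000 or more UMIs, which were 1684 of the 3290 with no tag after 5-FU. Barcodes under 100 UMIs at homeostasis held the members at 1263 CPM.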

How the results depend on the processing

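In all kept cells the summed ratio and the difference in dividing share kept their direction under every alternative run (10 and 9 of them in each library). The alternatives that only cluster or name the same cells anew cannot change these values. Those that can are the tag rules, the cell removals and a minimum of 4000 UMIs, which the dividing share already uses. The results by class did not all keep their direction, and the cause of each move was not tested. The alternatives were a tag rule of 80% of hashtag UMIs, a mixture model of the tag ratio, no 2% removal, no lineage removal, Leiden resolution 2, LT-HSC-like cells called by cell (3 UMIs over 9 markers), clustering on all variable genes, weighting to the same cluster makeup, the mean per-cell level and cutoffs of 5 or 20 UMIs for a dividing cell. For the dividing share by class, a cutoff on the share of UMIs without thinning was also run. Calling by cell took nearly all kept cells as LT-HSC-like in both libraries (at homeostasis 9341 of 10184 wild-type and 3892 of 4108 knockout cells). Clustering on all variable genes still left out Sin3b and the sex genes. Calling stem cells by 4 or more of 9 markers, clustering also without genes past 1.5-fold, and keeping only cells of 4000 or more UMIs were chosen after seeing the data. Counts of members past the fold are in either direction, and the share of all genes past it is not given for the alternatives. So these counts cannot be set against a background. For the same makeup and the mean per cell a count takes the fold alone, without an interval.

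In LT-HSC-like cells at homeostasis the summed log2 ratio was -0.479 (80% rule), -0.758 (mixture), -0.6 (no 2% removal), -0.457 (no lineage removal), -0.584 (resolution 2), -0.378 (by cell), -0.833 (4 of 9 markers), 0.0861 (all variable genes), -0.514 (without genes past the fold) and -0.084 (same makeup). In that order 14, 22, 22, 16, 19, 2, 31, 1, 18 and 8 members passed the fold, and 8 by the mean per cell. The dividing share differed by -4.54 (by cell), -4.61 (4 of 9 markers) and 3.97 points (5 UMIs). In other cells at homeostasis the ratio was -0.211 (80% rule), -0.333 (mixture), -0.163 (no 2% removal), -0.124 (no lineage removal), -0.159 (resolution 2), 0.475 (by cell), -0.109 (4 of 9 markers), -0.0984 (without genes past the fold), -0.121 (same makeup) and -0.0126 (per cell). Members past the fold were 2 (80% rule), 1 (mixture) and 12 (by cell), and the dividing share differed by -4.91 (mixture), -2.58 (no 2% removal), -2.08 (no lineage removal), -2.62 (resolution 2), 3.58 (by cell), -1.87 (4 of 9 markers), -1.73 (without genes past the fold) and 2.25 points (5 UMIs).

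In LT-HSC-like cells after 5-FU the summed ratio was 0.202 (80% rule), -0.331 (mixture), 0.0844 (no 2% removal), 0.59 (no lineage removal), 0.0248 (resolution 2), 0.273 (by cell), -0.0216 (4 of 9 markers), -0.0566 (all variable genes), -0.119 (without genes past the fold) and -0.0625 (same makeup). Members past the fold were 6 (80% rule), 7 (mixture), 3 (no 2% removal, without genes past the fold, and same makeup), 2 (resolution 2 and 4 of 9 markers) and 0 (by cell and all variable genes). In the rest, no lineage removal among them, the count stayed within 1.5 times the main 16. With no lineage removal the summed ratio was above 0, so that count cannot be read as members lower in the knockout. The dividing share differed by 0.915 (80% rule), -0.221 (mixture), 0.244 (no 2% removal), 0.985 (no lineage removal), 0.258 (resolution 2), 2.46 (by cell), 0.307 (all variable genes), -0.176 (without genes past the fold) and -0.17 points (same makeup). Single members turned above 0 there. With the 80% rule these were Ube2c (0.448), Ccnb2 (0.202), Cdkn3 (0.487), Kif4 (0.171), Knstrn (0.279), Aurka (0.214), Birc5 (0.424) and Mki67 (0.409). With no 2% removal they were Ube2c (0.342), Ccnb2 (0.279), Cdkn3 (0.13), Kif4 (0.124), Knstrn (0.263), Birc5 (0.435) and Mki67 (0.182). With no lineage removal they were Ube2c (1.7), Cenpf (0.963), Cenpe (0.242), Ccnb2 (1.05), Cdkn3 (0.993), Kif4 (0.552), Knstrn (0.872), Aurka (0.223), Birc5 (1.23), Mki67 (0.862) and Ect2 (0.175). By cell they were Ube2c (0.519), Cenpf (0.247), Ccnb2 (0.342), Cdkn3 (0.223), Kif4 (0.291), Knstrn (0.297), Aurka (0.237), Bub1 (0.3), Birc5 (0.47), Mki67 (0.26) and Ect2 (0.00791). On all variable genes they were Cenpe (0.674), Ccnb2 (0.278), Kif4 (0.468), Knstrn (0.102) and Mki67 (0.436). At resolution 2 they were Ube2c (0.203) and Mki67 (0.0105), with 4 of 9 markers Ube2c (0.429), Cdkn3 (0.0148) and Mki67 (0.0955), and with the same makeup Mki67 (0.00724).

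In other cells after 5-FU the ratio was 0.454 (80% rule), 0.274 (mixture), 0.512 (no 2% removal), 0.441 (no lineage removal), 0.344 (resolution 2), -0.062 (by cell), 0.318 (4 of 9 markers), 0.377 (all variable genes), 0.324 (without genes past the fold), 0.293 (same makeup) and 0.334 (per cell). Members past the fold were 8 (80% rule), 15 (no 2% removal), 7 (no lineage removal) and 0 (mixture, resolution 2, 4 of 9 markers, without genes past the fold, cells of 4000 or more UMIs, same makeup), and Ube2c was at -1.24 by cell. The dividing share differed by 11.1 (80% rule), 10.2 (no 2% removal), 7.96 (no lineage removal), 1.33 (by cell), 8.5 (5 UMIs) and 3.12 points (20 UMIs). With cutoffs of 5 and 20 UMIs the summed ratio at homeostasis was -0.858 and -0.00114 in dividing LT-HSC-like cells, -0.0523 and -0.0187 in dividing other cells, and -0.00988 and -0.0939 in other cells not dividing. After 5-FU it was -0.812 (5 UMIs) in dividing LT-HSC-like cells, -0.208 and -0.517 in those not dividing, 0.0934 and -0.127 in dividing other cells, and 0.0432 and 0.39 in other cells not dividing. edgeR called 7 members in LT-HSC-like cells without a filter on low counts and 9 with the mixture model, and 3 in other cells without the filter. Under the other alternatives of the fit 0 members were called. With the 80% rule 14 of 35 members were above 0 in LT-HSC-like cells, against 2 of 36 in the main fit. With the mixture model 12 of 36 were above 0 in other cells, against 36. Leaving out a replicate was not possible with 1 pool per genotype. The library, which holds 1 pool of each genotype, is a term of the edgeR fit, so that fit pairs the pools by library.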
